A study of Mus musculus with 7 samples.

Results

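The SLC25 genes encode the carrier family of the mitochondrial inner membrane. The genes described here are all rows of the liver RNA tables whose symbol is Slc25a followed by a number, except Slc25a15, the ornithine carrier of the urea cycle, and Slc25a20, the acylcarnitine carrier. The rule uses names only, and it found 45 of the 23366 genes in the tables. Liver RNA came from C57BL/6 mice, an inbred laboratory strain, at 3 months (young adult, n = 4) and at 21 months (old, n = 3). The labels name no genetic change and no treatment at either age, and give neither sex nor feeding state. Young and old livers are compared for these carrier transcripts. Polyadenylated RNA was sequenced with strand-specific libraries. Whether each library stands for its own mouse is not in the labels. The p-values therefore reflect the scatter among these 7 libraries, part of which could be technical.

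The inner mitochondrial membrane is closed to most metabolites, and SLC25 carriers move nucleotides, phosphate, carboxylic acids, amino acids, cofactors and metals across it, most often by exchanging one for another. In hepatocytes they link the matrix to fatty acid synthesis (citrate export), glucose production (malate and aspartate export), urea formation and ATP supply. A few family members sit elsewhere: Slc25a17 is a peroxisomal carrier and Slc25a46 a protein of the outer mitochondrial membrane. Transcripts are measured here, and carrier protein or transport activity was not.

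Libraries held 4724687 to 11143125 expected counts (the estimated reads per gene), of which the ribosomal RNA precursor row Rn45s took 18.7% to 25.6%. Of the hepatocyte markers looked at, 8 of 8 were measured. Their summed level ran from 50095 to 64125 CPM (counts relative to library size, scaled by TMM, which corrects for library composition) at 3 months and from 68668 to 72999 CPM at 21 months. Most of that sum was albumin (Alb), which was called higher, while Apoa1 was called lower. In whole liver, fewer cells of a type and less RNA per cell cannot be told apart, and the part of cell makeup in the results below was not tested. The old libraries differed among themselves in markers of other cells. Summed leukocyte markers were 65.6, 195 and 134 CPM in 21-month replicates 1, 2 and 3, and 123 to 171 CPM at 3 months. Stellate and endothelial markers stood at 49.0, 102 and 87.6 CPM in the same 3 libraries, and at 71.2 to 108 CPM at 3 months. Replicate 1 was thus the lowest of all 7 libraries in both lists. One of those markers, the endothelial gene Lyve1, was called lower at 21 months (log2 fold change -1.49, edgeR adjusted p = 0.0359).

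Carrier transcripts spanned more than 3 orders of magnitude in these livers. On the TPM scale, which corrects for length so that genes can be compared, 7 members had a mean of at least 100 over the 7 libraries, 16 lay from 10 to 100, 12 from 1 to 10 and 10 below 1. The highest was Slc25a39, which acts in glutathione import, at 396 ± 9.95 TPM (SD, n = 4) at 3 months and 526 ± 31.7 TPM (SD, n = 3) at 21 months. Next came Slc25a5, the ADP/ATP carrier ANT2, at 415 ± 20.4 and 496 ± 38.6 TPM. The citrate carrier Slc25a1 (mean over both ages 244 TPM), the liver-enriched carrier Slc25a47 (216 TPM), the ATP-Mg/phosphate carrier Slc25a23 (214 TPM), the phosphate carrier Slc25a3 (205 TPM), the dicarboxylate carrier Slc25a10 (141 TPM) and the glutamate carrier Slc25a22 (95.5 TPM) followed. These 8 genes held 78.2% of the family's summed TPM, and the first 2 of them held 34.9%.

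**Figure D1:**
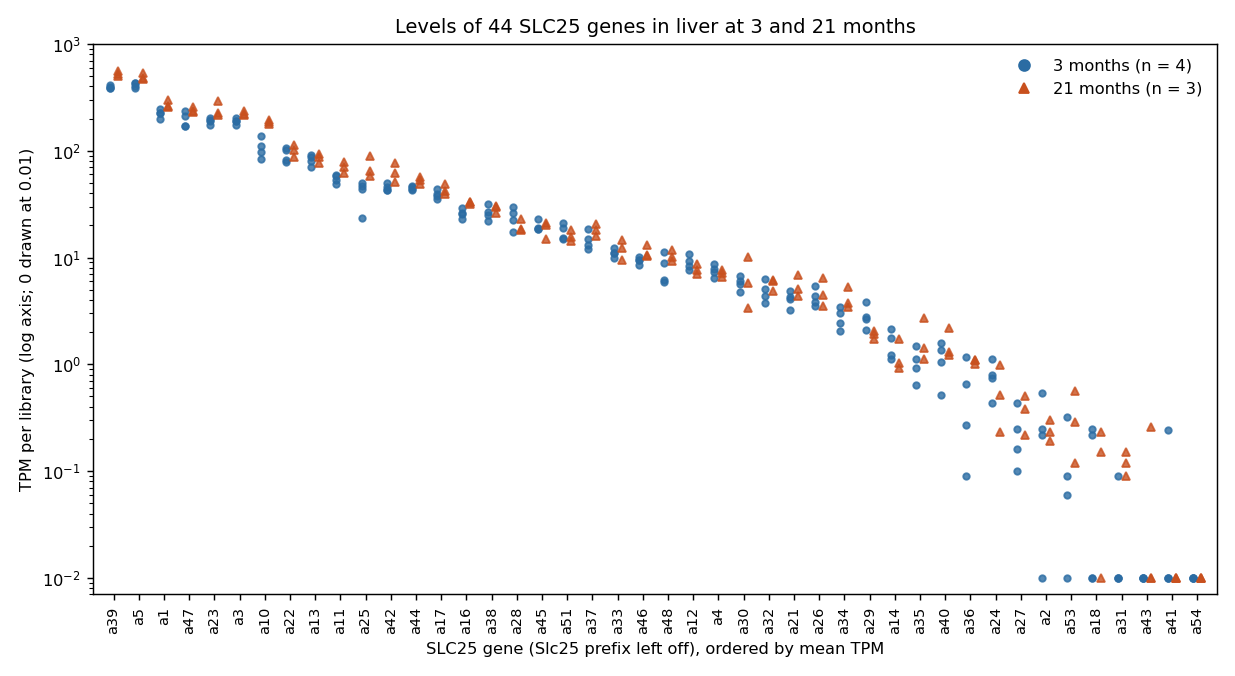
TPM of 44 of the 45 SLC25 genes in each library, on a log axis, with the 4 libraries of 3 months as circles and the 3 of 21 months as triangles; genes are ordered by mean TPM and 0 is drawn at 0.01. Levels run from 452 TPM for Slc25a39 down to Slc25a54, listed at 0 in all 7 libraries.

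Within pairs of close relatives 1 member usually carried most of the transcript. Of the ADP/ATP carriers, Slc25a5 stood 46.1 to 60.2 times above Slc25a4 (ANT1, the form of heart and muscle) at 3 months and 61.5 to 81.8 times at 21 months, as ratios of TPM within a library. Those ranges just failed to overlap, and Slc25a4 had only 19 to 47 counts per library. Muscle markers were near absent beside it: 4 of 7 (Ckm, Myh4, Tnnt3 and Mb) were at 0 in every library and all 7 together reached at most 0.279 CPM. Of the aspartate/glutamate carriers, which feed the malate-aspartate shuttle, Slc25a13 (citrin) exceeded Slc25a12 (aralar) 7.49 to 10.3 times at 3 months and 8.68 to 12.7 times at 21 months, with overlap. The mitochondrial iron importers were closer. Slc25a28 is mitoferrin 2, and Slc25a37 is mitoferrin 1, the main form of red cell precursors. The TPM ratio of Slc25a28 to Slc25a37 was 1.46 to 1.99 at 3 months and 0.887 to 1.43 at 21 months. These ranges just failed to overlap, while each gene alone overlapped in CPM and was not called. How often ratios of other genes fail to overlap was not computed. For single genes in CPM the share was 24.2%. Summed red cell markers ran from 649.9 to 1847 CPM at 3 months and from 1039 to 1320 CPM at 21 months. Most of that sum was Hba-a1. Hbb-b1 had a log2 fold change of 1.25 and Hbb-b2 one of -1.92, neither called. The part of red cells in the mitoferrin ratio was not tested. Slc25a39 stood 236 to 766 times above its relative Slc25a40, whose level lay near 1 TPM.

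Of the 45 members, 34 passed the filter on low counts and entered the test. The other 11 had 0 to 16 counts per library. They were Slc25a2 (a second ornithine carrier), Slc25a14 and Slc25a27 (uncoupling protein relatives of brain), Slc25a18 (a glutamate carrier), Slc25a24 (an ATP-Mg/phosphate carrier), Slc25a31 (ANT4, of testis), Slc25a35, Slc25a41, Slc25a43, Slc25a53 and Slc25a54. Slc25a35 had the most, with 29 counts over the 4 libraries of 3 months and 37 over the 3 of 21 months. Slc25a54 had none in any library, which allows up to 3 counts per library, or 0.257 to 0.607 CPM. Such limits reflect counting error alone, as amplified copies of a molecule were not marked.

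Between the ages, 1 of the 34 tested members changed: Slc25a10 rose. That is 2.94% of them, beside 11.3% of all 11251 genes tested in either direction and 5.47% called higher. The test was edgeR's (quasi-likelihood), with p-values adjusted by Benjamini and Hochberg's method over all genes and a threshold of 0.05. No member was called lower, beside 5.86% of all genes. In the same test edgeR's unadjusted p was under 0.05 for 8 members with a positive and 3 with a negative log2 fold change (21 months over 3 months). DESeq2 and limma voom called 0 lower as well. Of all genes tested, 26.6% had an unadjusted p under 0.05, against 32.4% of members. The log2 fold change was positive for 23 of 34 members (67.6%), against 49.8% of all genes. Its median was 0.14 over the members and -0.00 over all genes. Without 21-month replicate 1 the members' median was 0.08, with 22 of 35 tested members positive. The ages did not overlap in CPM for 9 members, or 26.5%, beside 24.2% of all genes. In that count 6 were higher at 21 months (Slc25a1, Slc25a3, Slc25a10, Slc25a16, Slc25a25 and Slc25a39), or 17.6% beside 11.3% of all genes. The other 3 were lower (Slc25a4, Slc25a12 and Slc25a29), or 8.82% beside 12.8%.

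**Figure D2:**
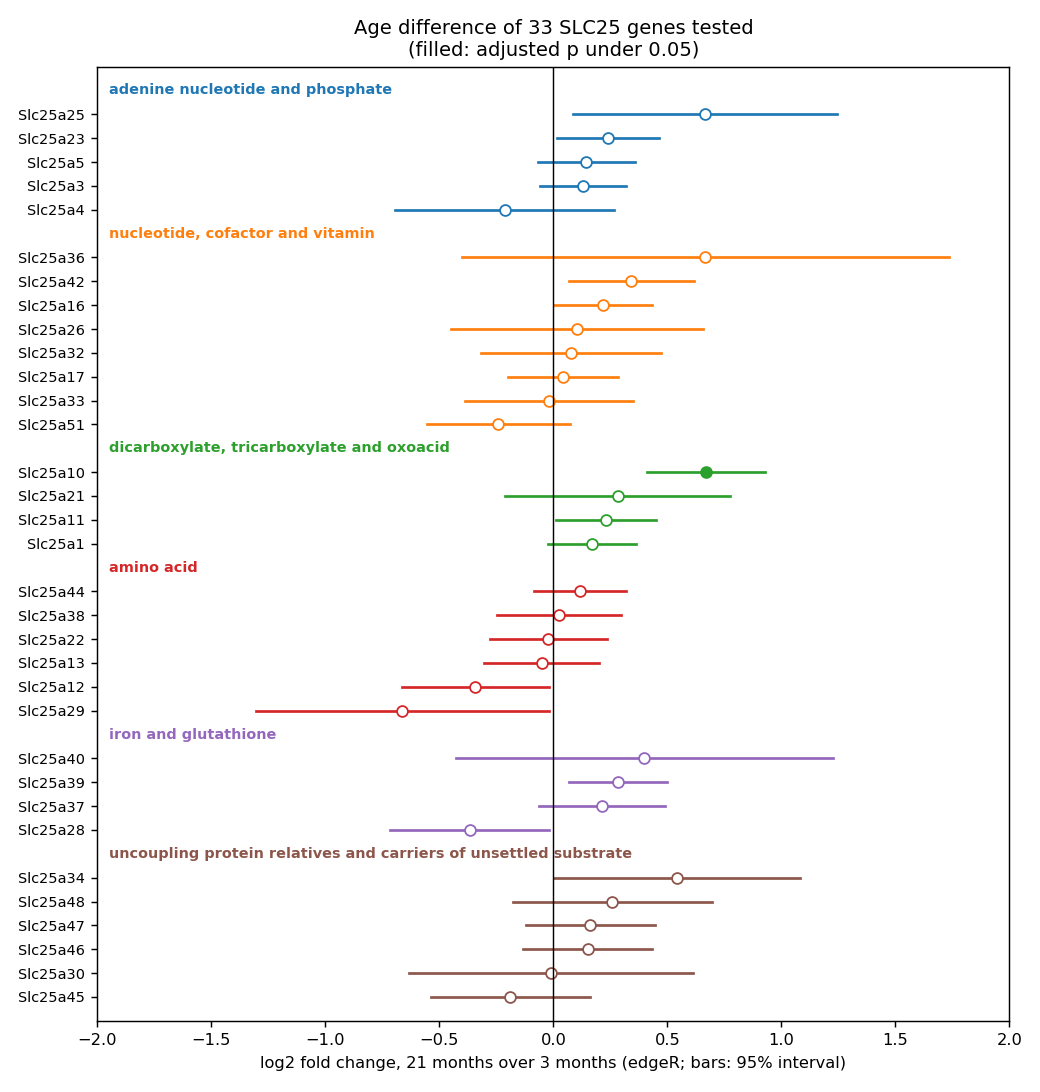
Log2 fold change of 33 of the 34 tested SLC25 genes (x axis, 21 months over 3 months) with its 95% interval, grouped by the substrates the carriers move; a filled point has an adjusted p under 0.05. Slc25a10 at 0.67 is the only filled point, and 23 of the 33 points lie to the right of 0.

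Counts by substrate class stand beside 49.8% of all genes with positive values and 26.6% with an unadjusted edgeR p under 0.05. The 4 carriers of dicarboxylates, tricarboxylates and oxoacids all had positive values, with a median log2 fold change of 0.26. Slc25a10 exchanges malate or succinate for phosphate and so passes dicarboxylates to glucose production and lipid synthesis. The young libraries held 242, 189, 269 and 189 CPM (replicates 1 to 4) and the old ones 359, 343 and 357 CPM (replicates 1 to 3). Every old library lay above every young one, and the young libraries spread more widely than the old. The group levels were 222 ± 39.9 (SD, n = 4) and 353 ± 8.86 CPM (SD, n = 3), a 1.59-fold rise (log2 fold change 0.67 ± 0.12 SE, 95% interval 0.41 to 0.93, edgeR adjusted p = 0.00322). Leaving out any 1 library kept the call, with log2 fold changes of 0.60 to 0.77. The call was lost with a covariate named fragment length here (0.65 ± 0.17 SE, edgeR adjusted p = 0.0538, where 2.95% of all genes were called). It is the median shortfall of effective length per library, and whether it equals the length of sequenced fragments is not given. That shortfall was 34.4 to 38.8 bases at 3 months and 35.4, 30.9 and 21.4 bases in 21-month replicates 1, 2 and 3. Replicates 2 and 3 of 21 months lay below every 3-month library, so this covariate and age cannot be fully told apart.

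Ratios within a library, which need no scaling between libraries, gave the same direction. Each has the member already called as its numerator, so they are no separate test. As a share of the family's summed TPM, Slc25a10 held 3.79% to 5.50% at 3 months and 6.20% to 6.68% at 21 months. Its TPM was 0.428 to 0.563 times that of the citrate carrier Slc25a1 at 3 months and 0.629 to 0.724 times at 21 months. Against the phosphate carrier Slc25a3 the ratios were 0.479 to 0.676 and 0.790 to 0.867. Against the oxoglutarate/malate carrier Slc25a11 they were 1.64 to 2.36 and 2.39 to 3.09, a narrow gap. None of these ranges overlapped between ages. In the gene order of GRCm38.p6, Slc25a10 lies beside Mrpl12, a mitochondrial ribosomal protein gene, and near Gcgr, the glucagon receptor gene. Mrpl12 had a log2 fold change of -0.17 (edgeR adjusted p = 0.294) and Gcgr one of -0.02 (0.902). For nearby Hgs it was -0.24 (edgeR adjusted p = 0.108), with every old library below the young ones, and for Arl16 0.24 (0.646). All were looked up after the values of Slc25a10 were seen.

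The other oxoacid carriers moved less. Slc25a1, which exports citrate for fatty acid and sterol synthesis, stood at 201, 181, 197 and 182 CPM at 3 months and at 213, 225 and 204 CPM at 21 months. The ages just failed to overlap, and its log2 fold change of 0.17 did not pass (95% interval -0.02 to 0.36, edgeR adjusted p = 0.247). Slc25a11, the oxoglutarate/malate carrier of the malate-aspartate shuttle, had 50.8 to 53.3 CPM at 3 months and 64.7, 65.9 and 53.2 CPM in the 21-month replicates (log2 fold change 0.23, edgeR adjusted p = 0.166). One old library thus lay among the young. Slc25a21, a carrier of longer oxodicarboxylates, had means of 5.58 and 6.70 CPM, and its ages overlapped.

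Among the carriers of adenine nucleotides and phosphate, none of 5 tested passed in edgeR's test, with 2 at an unadjusted p under 0.05 and a median log2 fold change of 0.14. Slc25a25, an ATP-Mg/phosphate carrier, stood at 84.7, 69.4, 81.3 and 43.3 CPM at 3 months and at 107, 87.3 and 137 CPM at 21 months. The ages did not overlap, and 3-month replicate 4 was the lowest library. Its log2 fold change was 0.67 ± 0.25 SE (edgeR adjusted p = 0.136), and 0.50 without that library (0.0809). DESeq2 called it (0.67, DESeq2 adjusted p = 0.0120, where 10.1% of all genes were called). Its relative Slc25a23 had 319, 316, 333 and 355 CPM at 3 months and 366, 452 and 354 CPM at 21 months, with a slight overlap (log2 fold change 0.24, edgeR adjusted p = 0.155). Slc25a5 had 249 to 266 CPM at 3 months and 327, 261 and 269 CPM at 21 months, where replicate 1 alone stood out (0.14, edgeR adjusted p = 0.388). For Slc25a3, which brings phosphate in for ATP synthesis, the ranges were 136 to 153 and 153 to 163 CPM (0.13, edgeR adjusted p = 0.386). Slc25a4 had 3.84 to 5.11 and 3.55 to 3.77 CPM (-0.21, edgeR adjusted p = 0.597).

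With the replicate numbers of the labels as a block, the number of members called went from 1 to 3, all higher at 21 months, beside 9.55% of all genes. They were Slc25a10 (0.61 ± 0.11 SE, edgeR adjusted p = 0.00310), Slc25a25 (0.47 ± 0.11 SE, edgeR adjusted p = 0.0176) and Slc25a39 (0.33 ± 0.10 SE, edgeR adjusted p = 0.0485). In that fit 3-month replicate 4, which has no partner, carries no weight in the age difference. Slc25a39, the most abundant member, had 365, 307, 309.7 and 366 CPM at 3 months and 426, 423 and 381 CPM at 21 months, without overlap. Without the block its log2 fold change was 0.28 ± 0.10 SE (edgeR adjusted p = 0.0841). On the TPM scale it was 0.41 on log2(TPM + 1) (limma adjusted p = 0.0154), and 2 members were called there, Slc25a10 and Slc25a39, beside 9.27% of all genes (9.01% with a pseudocount of 0.1). On that scale the median of all genes lay at 0.10 and 74.6% of all calls were higher, against 48.3% on scaled counts, so values there are relative to that shift.

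**Figure D3:**
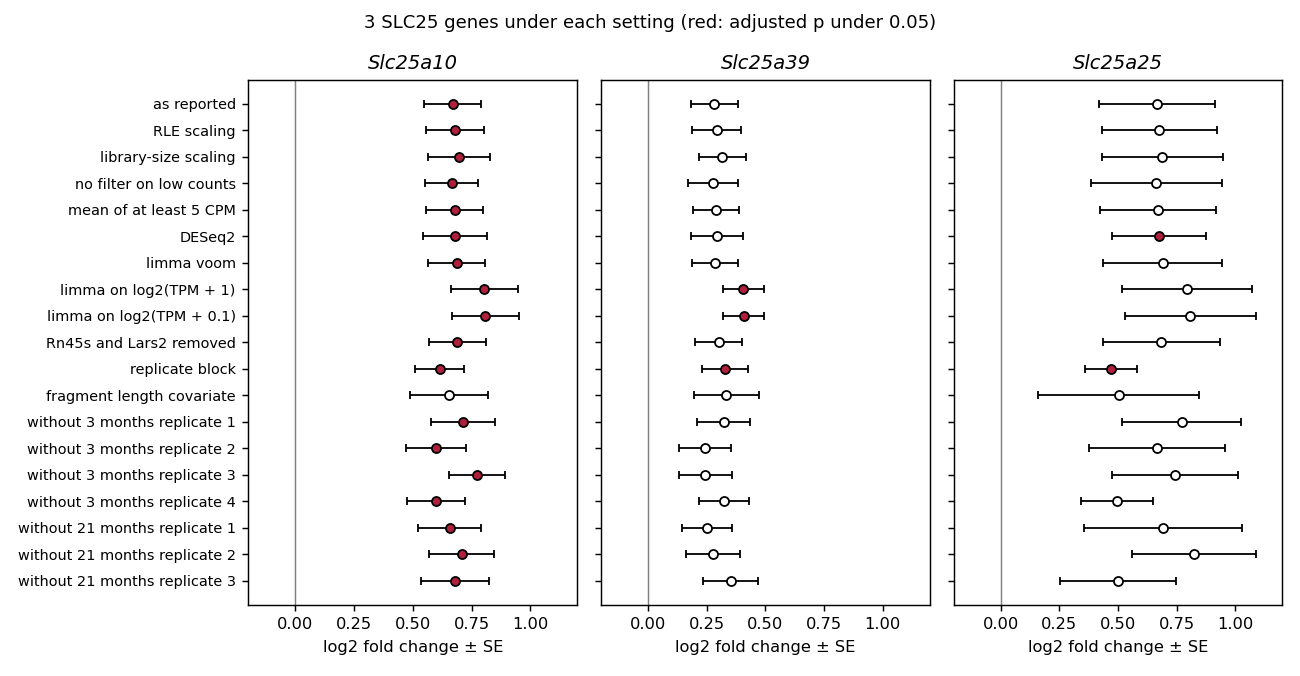
Log2 fold change ± SE (21 months over 3 months) of Slc25a10, Slc25a39 and Slc25a25 under each scaling, filter, tool, model and left-out library; red points have an adjusted p under 0.05. Slc25a10 keeps values between 0.60 and 0.81 and loses its call with fragment length as a covariate; Slc25a39 and Slc25a25 pass in few settings.

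Across the other settings in that plot Slc25a10 was the one member called, with 1 exception. The share of all genes called was 11.3% with RLE scaling and with limma voom, 9.17% with library-size scaling and 8.35% without a filter on low counts. It was 14.1% when only genes averaging 5 CPM or more were tested and 11.5% with the rows Rn45s and Lars2 removed. Leaving out 3-month replicates 1 to 4 in turn gave 8.07%, 7%, 7.39% and 6.57%, and leaving out 21-month replicates 1 to 3 gave 14.4%, 9.94% and 5.1%. The exception was the fit without 21-month replicate 1, which called Slc25a42 too.

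The start sites of these 3 genes are shown because they are the members called with the block. RefSeq windows of GRCm38.p6, 250 bases before to 50 after a start, were in the promoter table for 34 of the 45 members (43 windows). Each was searched on both strands for the letters of 7 promoter motifs, which apart from that of NRF1 are spelled out beside their counts. No motif lies inside another. Capitals mark matches. The window of Slc25a10 is chr11:120491587-120491886, plus strand, that of Slc25a39 chr11:102407468-102407767, minus strand, and that of Slc25a25 chr2:32424017-32424316, minus strand, 1 of 3 starts listed for that gene and the one that holds a cyclic AMP response element.
Slc25a10: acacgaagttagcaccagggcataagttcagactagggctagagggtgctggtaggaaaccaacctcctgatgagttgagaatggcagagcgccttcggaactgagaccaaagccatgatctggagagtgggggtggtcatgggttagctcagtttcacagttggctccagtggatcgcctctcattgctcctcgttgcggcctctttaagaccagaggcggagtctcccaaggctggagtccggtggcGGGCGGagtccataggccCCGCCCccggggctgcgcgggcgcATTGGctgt
Slc25a39: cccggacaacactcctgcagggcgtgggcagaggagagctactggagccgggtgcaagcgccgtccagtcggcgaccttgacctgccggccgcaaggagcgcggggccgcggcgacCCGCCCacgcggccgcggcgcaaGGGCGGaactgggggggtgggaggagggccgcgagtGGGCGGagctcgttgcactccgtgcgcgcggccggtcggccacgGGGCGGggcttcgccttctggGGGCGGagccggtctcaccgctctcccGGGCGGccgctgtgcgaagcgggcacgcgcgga
Slc25a25: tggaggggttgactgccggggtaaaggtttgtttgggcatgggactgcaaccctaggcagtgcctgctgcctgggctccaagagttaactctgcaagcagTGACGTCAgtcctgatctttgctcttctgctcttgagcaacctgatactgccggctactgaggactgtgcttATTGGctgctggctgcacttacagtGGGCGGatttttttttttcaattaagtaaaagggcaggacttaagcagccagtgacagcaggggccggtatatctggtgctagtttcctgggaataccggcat

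The Slc25a10 window holds 2 GC boxes, which begin 1 base before and 18 bases after the start, and 1 reversed CCAAT box downstream of it. The Slc25a39 window, 77.3% G and C, holds 6 GC boxes. The Slc25a25 window shown holds a cyclic AMP response element 150 bases before the start, with 1 GC box and 1 reversed CCAAT box between. The windows of its other 2 starts hold no such element. That at 63% G and C holds 2 GC boxes, 3 CCAAT boxes and 1 ETS site, and that at 51.3% holds 2 CCAAT boxes. Which start is used in these livers was not tested. A GC box, searched as GGGCGG, was found in 35 of the 43 member windows (81.4%), beside 35.7% of all 32851 windows, and a CCAAT box in 51.2% beside 37.4%. The letters of a TATA box, TATAAA, were rarer in member windows, at 4.65% beside 13.6%. An ETS site, searched as CCGGAAG, stood in 14.0% of member windows beside 8.86% of all windows. An E-box, searched as CACGTG, stood in 16.3% of member windows beside 7.15% of all. The cyclic AMP response element, searched as TGACGTCA, stood in 4.65% beside 1.79%, which is 2 windows, of Slc25a25 and Slc25a36. The consensus letters of NRF1 were in 0 member windows and in 0.971% of all. The median G and C content was 59.0% for member windows and 52.7% for all, so GC-rich letters differ in their base rate. The set of all windows was not limited to genes expressed in liver. Windows were counted rather than genes, so a gene with several starts counts more than once. Whether these shares are particular to the family was not tested. These are matches of letters and do not show binding.

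Of the amino acid carriers, 4 of 6 tested had values below 0, with a median log2 fold change of -0.04. One of the 4, Slc25a22, lay near 0 and was above it with library-size scaling, on both TPM scales and in 4 of 7 fits with 1 library left out. None of the 6 passed in edgeR's test, with 2 at an unadjusted p under 0.05. Slc25a12 had 14.6, 15.2, 11.9 and 12.5 CPM at 3 months and 11.2, 11.7 and 9.39 CPM at 21 months, without overlap (log2 fold change -0.34, edgeR adjusted p = 0.163). Its more abundant relative Slc25a13 had 122 to 155 and 109 to 146 CPM, with a log2 fold change of -0.05 and a 95% interval of -0.30 to 0.20. Slc25a29, a carrier of basic amino acids, stood at 2.92, 2.49, 3.64 and 2.27 CPM at 3 months and at 1.87, 1.82 and 1.55 CPM at 21 months. These levels are low, and its value of -0.66 ± 0.30 SE did not pass (edgeR adjusted p = 0.175). The glutamate carrier Slc25a22 overlapped, with 104 to 146 and 112 to 134 CPM (-0.02, 95% interval -0.28 to 0.23). Slc25a38, which takes glycine to heme synthesis, and Slc25a44, a carrier of branched-chain amino acids, had values of 0.02 and 0.12.

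**Figure D4:**
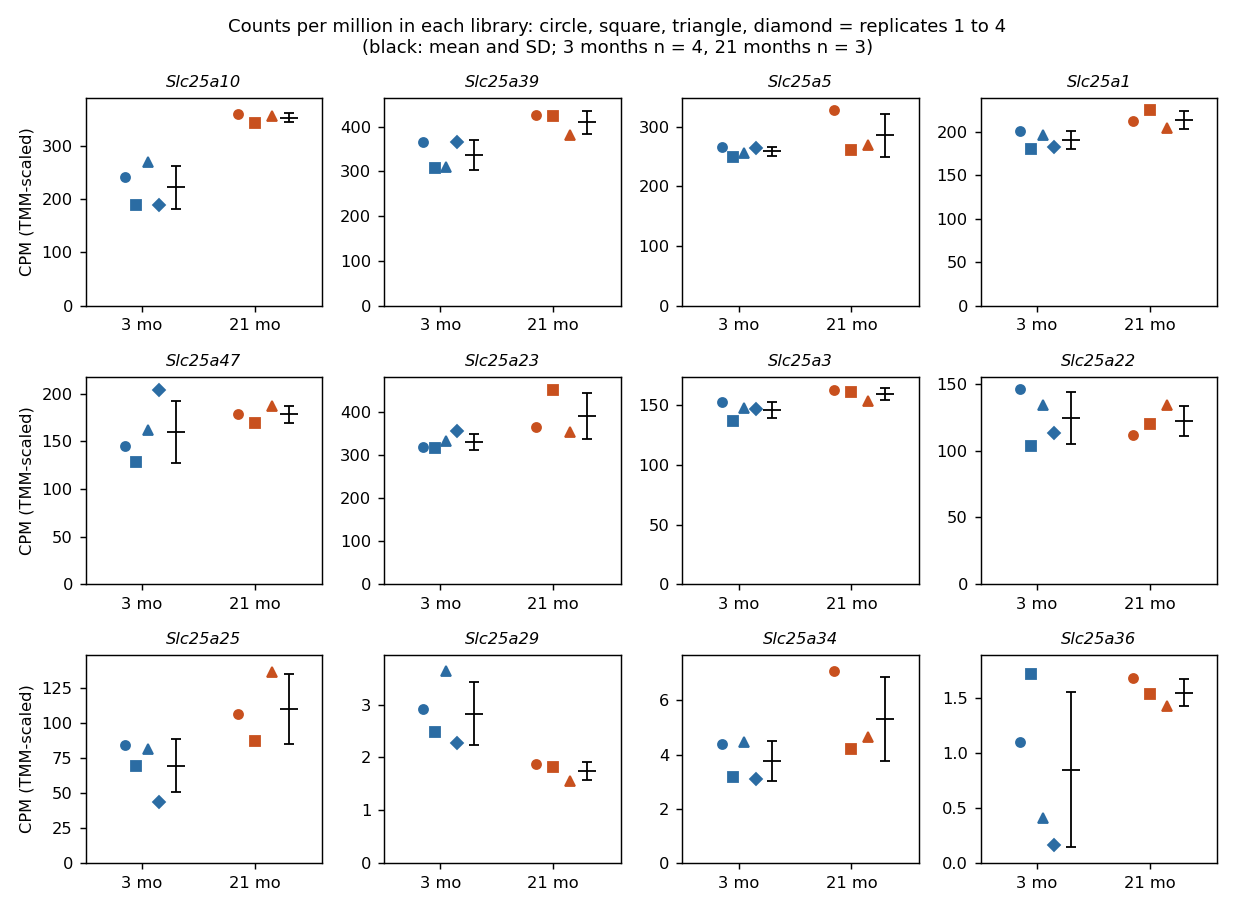
CPM of 12 SLC25 genes in each library (y axes from 0), by age, with marker shape giving the replicate number and black bars the mean and SD (n = 4 at 3 months, n = 3 at 21 months). Slc25a10 shows the clearest gap, 189 to 269 CPM against 343 to 359 CPM, while Slc25a22 and Slc25a47 overlap.

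Of 9 carriers of nucleotides, cofactors and vitamins, none passed in edgeR's test, with 2 at an unadjusted p under 0.05. The coenzyme A carrier Slc25a42 had 74.6, 65.0, 70.2 and 87.8 CPM at 3 months and 80.2, 113 and 90.3 CPM at 21 months (log2 fold change 0.34 ± 0.13 SE, edgeR adjusted p = 0.0983). The ages overlapped, through 3-month replicate 4. Slc25a16, whose substrate is linked to coenzyme A, had 38.7 to 44.9 and 47.8 to 50.4 CPM (0.22, edgeR adjusted p = 0.180). Slc25a51, the mitochondrial NAD carrier, had a value of -0.24 (edgeR adjusted p = 0.319). Slc25a36, a pyrimidine nucleotide carrier, had 0.162 to 1.72 CPM at 3 months and 1.43 to 1.68 CPM at 21 months. Its value of 0.67 carried an interval of -0.40 to 1.73, and was 0.36 without 3-month replicate 4. Slc25a17, Slc25a26, Slc25a32 and Slc25a33 lay between -0.02 and 0.10.

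Iron and glutathione carriers gave 3 positive values and 1 negative, with 2 at an unadjusted p under 0.05. Beside Slc25a39, Slc25a37 had 27.0 to 37.8 and 30.7 to 39.8 CPM (log2 fold change 0.21, edgeR adjusted p = 0.324). Slc25a28 had 14.2 to 21.9 and 12.8 to 15.9 CPM (-0.37, edgeR adjusted p = 0.166). Slc25a40, at 0.811 to 3.05 CPM over all libraries, had a value of 0.40 with an interval of -0.43 to 1.22. Of 6 uncoupling protein relatives and carriers of unsettled substrate, none passed in edgeR's test, with 1 at an unadjusted p under 0.05. That was Slc25a34, at 4.38, 3.17, 4.45 and 3.08 CPM at 3 months and 7.09, 4.19 and 4.64 CPM at 21 months (0.54 ± 0.25 SE, edgeR adjusted p = 0.186). Without 21-month replicate 1, its highest library, the value was 0.26 (edgeR adjusted p = 0.549). Slc25a47, a carrier made mainly by liver, had 145, 129, 161 and 204 CPM and 179, 169 and 187 CPM. The highest library was a young one, and its value of 0.16 did not pass (edgeR adjusted p = 0.477). Slc25a46 and Slc25a48 had values of 0.15 and 0.26, Slc25a30 one of -0.01 and Slc25a45 one of -0.19, and all 4 overlapped between ages.

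For the 33 members not called, a missed threshold does not show equal levels. The 95% interval of the fold change lay within 1.5-fold in either direction for 20 of them and within 2-fold for 28. Precision followed level: SE was 0.18 to 0.50 for the 10 members with a mean of at most 10 CPM and 0.09 to 0.25 for the 13 above 50 CPM. Slc25a25, Slc25a42 and Slc25a51 had no whole count in any library, so some of their reads were shared with other rows. Slc25a11, Slc25a21, Slc25a25 and Slc25a26 overlap another gene of the tables in GRCm38.p6 (Rnf167, Pax9, Naif1 and Lrig1), and whether counting used strand is not given in the sources used here.

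Summed over the 45 members, TPM was 2303, 2306, 2502 and 2221 at 3 months and 2846, 3005 and 2877 at 21 months, a ratio of means of 1.25. The median log2 fold change of all genes on log2(TPM + 1) was 0.10, so this ratio is relative to that shift. On scaled counts the sums were 2490.3 ± 139.5 CPM (SD, n = 4) and 2909 ± 70.2 CPM (SD, n = 3), a ratio of 1.17. Without Slc25a10 the CPM ratio was 1.13, and without the 8 most abundant members 1.10. Transcript length, which the tables weight by isoform, differed little between libraries in tested members with several transcripts, by at most 85.6 bases (Slc25a22), and overlapped between ages in each of them.

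Other family members carry older symbols. Of 5 in the tables, Ucp1 and Ucp3 had no counts and 3 were tested. Of these 3, 2 were called higher, beside 5.47% of all genes. Ucp2, an uncoupling protein relative, rose from 23.1 ± 1.32 to 34.4 ± 10.7 CPM (log2 fold change 0.57, edgeR adjusted p = 0.0440) and Mtch1, an outer membrane carrier homologue, from 54.7 ± 4.07 to 73.1 ± 9.42 CPM (0.42, edgeR adjusted p = 0.0232). Mtch2, its relative, had a value of 0.06. In 21-month replicate 2 Ucp2 stood at 46.6 CPM. Its call was lost without that library (0.31, edgeR adjusted p = 0.126), without any single 3-month library (0.0732 to 0.114) and with the block (0.0590). Nor was Ucp2 called by limma voom (adjusted p = 0.0632), by limma on both TPM scales (0.0584 and 0.0589) or by edgeR when scaled by library size (0.0601). Mtch1 missed the threshold when 3-month replicate 2, 3-month replicate 3 or 21-month replicate 2 was left out (edgeR's adjusted p 0.0694 to 0.0730). Of the pair left out by the rule, Slc25a15 had a log2 fold change of 0.04 (edgeR adjusted p = 0.854) and Slc25a20 one of 0.22 (0.214).

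Among 19 other tested transporters and channels of mitochondria, 3 rose and 1 fell, with a median log2 fold change of 0.14. Beside that, 5.47% of all genes were called higher and 5.86% lower. Sfxn5, a sideroflexin, rose from 32.6 ± 3.44 to 50.2 ± 4.03 CPM (0.63, edgeR adjusted p = 0.00284). Letm1, an inner membrane cation exchange protein, fell from 92.5 ± 6.55 to 65.4 ± 4.97 CPM (-0.50, edgeR adjusted p = 0.00567). Both calls held without any single library. Mcu, the calcium uniporter pore, rose with a log2 fold change of 0.53 (edgeR adjusted p = 0.0279), and Mpc1, a subunit of the pyruvate carrier, with one of 0.57 (0.0492). Mcu stayed called only when the library left out was 3-month replicate 3 or 21-month replicate 1, with edgeR's adjusted p at 0.0568 to 0.0991 for the others. That of Mpc1 was lost without any 1 library except 21-month replicate 2 (edgeR adjusted p = 0.0651 to 0.128), and its log2 fold change was 0.31 without 21-month replicate 1. The call also ended with RLE scaling (edgeR adjusted p = 0.0502), without a filter (0.0823) and with limma voom (0.0639). Its partner Mpc2 had a value of 0.06.

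The machinery that imports carriers into the inner membrane lay on the other side of 0: 14 of 15 tested genes were negative, with a median log2 fold change of -0.29, and 1 fell. Over all 11251 genes tested, 5651 were negative, 5.47% were called higher and 5.86% lower. The lists were chosen with earlier results of these data known, and the contrast between lists was not tested. The import gene that fell was Timm9, a chaperone of the space between the membranes (15.9 ± 2.88 to 10.6 ± 1.61 CPM, -0.57, edgeR adjusted p = 0.0405). In the fits with 1 library left out it stayed called only without 3-month replicate 1 or 21-month replicate 1, and elsewhere edgeR's adjusted p was 0.0598 to 0.153. With the block it was 0.104. Library-size scaling (edgeR adjusted p = 0.0526), DESeq2 (0.0598) and limma on both TPM scales (0.0566 and 0.0576) ended the call too. Of 16 ATP synthase genes, Atp5b fell (log2 fold change -0.32, edgeR adjusted p = 0.0444), a call kept only without 21-month replicate 1 among the fits with 1 library left out (lost in the others at 0.0781 to 0.195) and lost with the block (0.0770). It was lost as well with RLE scaling (edgeR adjusted p = 0.0535), library-size scaling (0.0882) and the rows Rn45s and Lars2 removed (0.0544). On both TPM scales its value was -0.19 and -0.20 (limma adjusted p = 0.178 and 0.174). The median of that list was -0.15. Of 11 regulators of mitochondrial biogenesis, 9 had negative values, with a median log2 fold change of -0.25 and 7 of 11 at an unadjusted p under 0.05. In 4 the old libraries all lay below the young ones. Of all genes tested, 26.6% had an unadjusted p under 0.05 in edgeR's test, and 12.8% had every old library below the young ones. Among the 11, Ppargc1a rose (3.21 ± 0.597 to 5.94 ± 1.40 CPM, 0.85, edgeR adjusted p = 0.0348) and Pprc1, its relative, fell (25.7 ± 3.45 to 13.4 ± 1.47 CPM, -0.94, edgeR adjusted p = 0.000944). The call of Ppargc1a was kept only without 21-month replicate 1 among those fits (lost in the others at 0.0579 to 0.116). DESeq2 (adjusted p = 0.0538) and limma on both TPM scales (0.0945 and 0.109) did not call it. That of Pprc1 held in all 7. Of 6 enzymes of the malate-aspartate and glycerol phosphate shuttles and 10 of citrate and pyruvate turnover, edgeR called 0, with 2 in each list at an unadjusted p under 0.05 and medians of 0.05 and 0.14. Fragment length as a covariate ended every call in this and the previous 2 paragraphs except that of Pprc1. The log2 fold changes themselves stayed close or grew: they were 0.71 for Ucp2, 0.48 for Mtch1, 0.57 for Sfxn5, -0.50 for Letm1, 0.48 for Mcu and 0.77 for Mpc1. Those of Timm9, Atp5b and Ppargc1a were -0.53, -0.27 and 0.85.

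**Figure D5:**
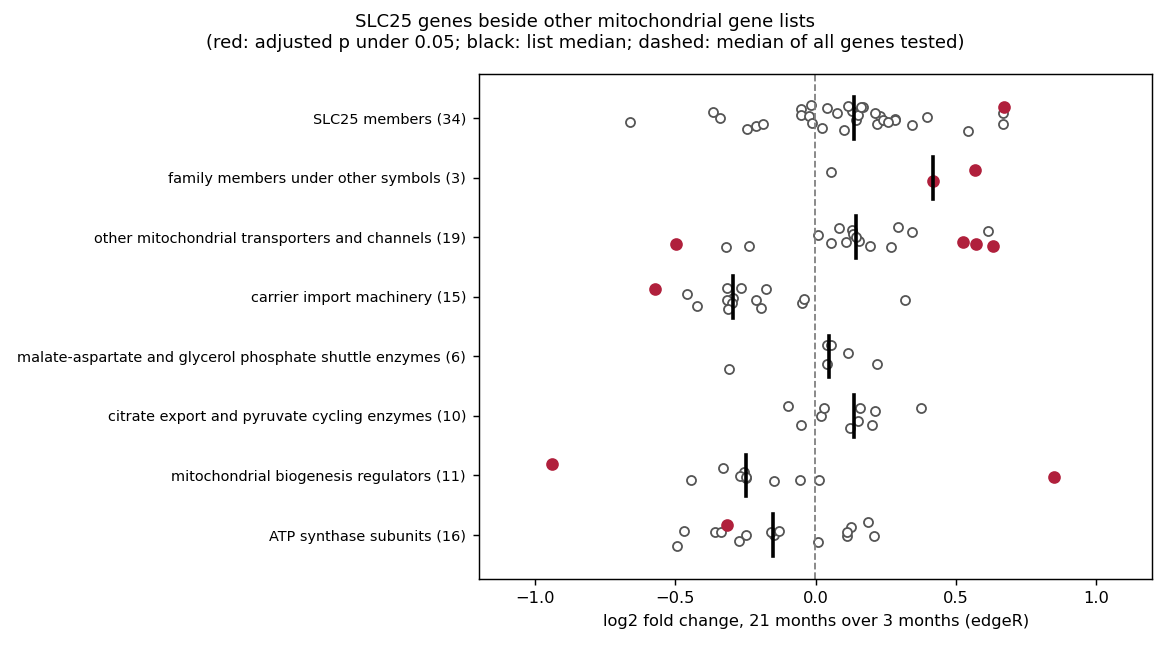
Log2 fold change (21 months over 3 months) of each tested gene in the SLC25 family and 7 other lists, with the number tested in brackets; red points have an adjusted p under 0.05, black bars are list medians and the dashed line is the median of all genes tested. The SLC25 median is 0.14 and that of the import machinery -0.29.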

How the data were processed

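Liver RNA of 7 samples was analysed, 4 at 3 months and 3 at 21 months, grouped by their titles. The submitters' processing notes name TopHat, RSEM, edgeR and build mm9, without versions or roles. Per the file headers, the authors deposited expected counts per gene (86.5% whole within 0.005), TPM, and gene and effective lengths; deposited FPKM values were not used. Expected counts were rounded, filtered with filterByExpr (minimum count 10, minimum total 15), scaled by TMM and tested with edgeR 4.0.16's robust quasi-likelihood test with Benjamini-Hochberg adjustment over 11251 genes at 0.05; SE is the log2 fold change over the root of F. DESeq2 1.42.0, limma 3.58.1, R 4.3.3, Python 3.11.15 and matplotlib 3.10.9 were also used. Fits were tested on simulated data. The members and all gene lists were chosen with earlier results of these data known. Members named with full values were those called, the 8 of highest TPM, and those with an absolute log2 fold change of at least 0.5; others were chosen after their values were seen. One member is counted in all totals but not reported here by name. Alternatives changed scaling, filter, tool, unit, model and libraries. Every pair of libraries of an age differed by more than counting noise. The main test took no account of pairs. Only the alternative with a block took the replicate numbers of the labels as pairs. Its ground was that same-numbered libraries deviated together, if weakly, from their group means (correlation across genes 0.10, 0.17 and 0.11 for numbers 3, 2 and 1). The labels state no pairing, and a pair with different numbers, 3-month replicate 4 and 21-month replicate 1, had a correlation of 0.16, above that of numbers 1 and 3. Gene order and promoter windows came from RefSeq GRCm38.p6, in which all 45 members matched by symbol.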

Additional observations from a re-analysis of the deposited data

Results flagged for a closer look

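In the 4 libraries of 3 months, Slc25a4 stood apart in replicate 1, at 5.11 CPM against 3.84 to 4.03 CPM in replicates 2 to 4. This was 1 of 34 members looked at, where chance flags about 1 group in 20. The same library had the highest summed red cell markers (1847 CPM) and adipocyte markers (6.93 CPM) of the 7, and their part in this value was not tested.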

How the results depend on the processing

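The count of SLC25 genes called was 1 as reported, all of it higher at 21 months. It was 2 with DESeq2, 2 with limma on log2(TPM + 1) and on log2(TPM + 0.1), 3 with the replicate block and 0 with fragment length as a covariate. It ranged from 1 to 2 with 1 library left out. Slc25a10 was among those called in each setting except the fragment length covariate. The count of other mitochondrial genes called was 10 of 80 tested as reported, beside 11.3% of all genes. It fell to 1 with that covariate, where 2.95% of all genes were called. With 1 library left out it ranged from 3 to 23. It was 3 without 3-month replicate 2 (7% of all genes called) and 23 without 21-month replicate 1 (14.4%). The share of all genes called thus moved too, and the cause was not tested. Replicate 1 of 21 months had the lowest leukocyte and stellate and endothelial marker sums. The direction of Slc25a22 reversed from -0.02 to 0.011 with library-size scaling and 0.13 on both TPM scales, and its range was -0.10 to 0.063 with 1 library left out, none past the threshold. The log2 ratio of the summed TPM, 0.32, was 0.29 to 0.35 with 1 library left out and 0.22 on summed CPM, an alternative added after seeing the data. On log2(TPM + 1) the median log2 fold change of all genes was 0.10. Depth limited the 11 members with at most 16 counts per library.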
